A study of Mus musculus with 4 samples.

Results

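The 10 genes described here encode the corticosteroid receptors, an enzyme that makes their ligand inside cells, and 7 genes known to respond to glucocorticoids or stress: Nr3c1, Nr3c2, Hsd11b1, Fkbp5, Sgk1, Tsc22d3, Ddit4, Zbtb16, Nfkbia and Tiparp. They were taken by name, with every probe set that the array's gene table assigns to a single one of them, which gave 28 of the 34958 single-symbol probe sets and 10 of 18194 genes. Transcript levels were measured with an Affymetrix expression array in RNA of the whole hippocampus of the left side from wild-type mice. The 4 samples, numbered 11, 13, 15 and 17, form 1 group of biological replicates with 1 array each, and no treatment is named. Strain, age, sex, housing, handling and time of death, all of which bear on stress hormones, are not stated in the labels. The genes were selected on their known roles and with the log2 levels and spreads of these same 4 samples in view, so their values are a description with no test.

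Corticosterone, the main glucocorticoid of mice, crosses cell membranes and binds a pair of receptors that act as transcription factors. The mineralocorticoid receptor, encoded by Nr3c2, binds it with high affinity and is typical of hippocampal neurons, whereas the glucocorticoid receptor, encoded by Nr3c1, is engaged more fully when the hormone rises after stress or at the daily peak. Both receptors bind the same palindromic DNA sequence, the glucocorticoid response element, and the hippocampus is one of the regions through which the hormone restrains its own release.

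Promoter sequences are given first for 4 of the 5 targets whose main probe sets were highest in sample 17. The windows shown were chosen because each holds letters that a regulator of that gene is known to read. Whether these letters go with the values in sample 17 was not tested. RefSeq windows of assembly GRCm38.p6, from 250 bases before to 50 bases after a transcript start, were searched for 8 of the 10 genes. These genes had 15 windows. Zbtb16 had no window and Nr3c1 was left out of the search, so the counts in the 15 windows cover neither gene. Searched on both strands, the full element, AGAACA and TGTTCT with 3 free bases between them, lay in 1 of the 15 windows, at an internal start of Sgk1, and in 3 of all 32851 promoter windows (0.0091%). The hexamer TGTTCT, which the full element contains on each strand, lay in 4 of the 15, in windows of Sgk1 and Tsc22d3, against 19.0% of all windows. The NF-kappaB site made of GGGAA followed directly by TTTCC lay in 1, that of Nfkbia, against 0.088% of all windows, and the site made of GGGAC followed by TTTCC in 0 of the 15, against 0.16%. The core of the xenobiotic response element, GCGTG, read by the aryl hydrocarbon receptor, lay in 8 of the 15 and in 32.4% of all windows. Those 8 belong to 6 of the genes, so it does not set Tiparp apart. The TATA box TATAAA lay in 3 of the 15 (13.6% of all windows), TGACG of the cyclic AMP element in 2 (20.8%) and the full cyclic AMP element, which contains TGACG, in 0 (1.79%). The window of Fkbp5 held none of the letters searched, and that of Ddit4 held only GCGTG among them. Of the Tsc22d3 windows, only the one at chrX:140600473-140600772 held TGTTCT. Those at chrX:140542619-140542918 and chrX:140548522-140548821 did not, and some Sgk1 windows also lacked it. Each sequence below is the 250 bases before the start, 5′ to 3′ on the gene's strand. Capitals mark the full glucocorticoid response element in Sgk1 (chr10:21993640-21993889, plus strand), the NF-kappaB site in Nfkbia (chr12:55492648-55492897, minus strand), the hexamer in Tsc22d3 (chrX:140600523-140600772, minus strand) and the xenobiotic core in Tiparp (chr3:65528197-65528446, plus strand).
Sgk1: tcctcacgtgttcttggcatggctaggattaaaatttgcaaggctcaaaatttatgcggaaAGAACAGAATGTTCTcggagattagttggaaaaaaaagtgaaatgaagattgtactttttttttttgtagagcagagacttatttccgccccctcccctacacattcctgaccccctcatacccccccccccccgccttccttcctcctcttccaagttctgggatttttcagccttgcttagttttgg
Nfkbia: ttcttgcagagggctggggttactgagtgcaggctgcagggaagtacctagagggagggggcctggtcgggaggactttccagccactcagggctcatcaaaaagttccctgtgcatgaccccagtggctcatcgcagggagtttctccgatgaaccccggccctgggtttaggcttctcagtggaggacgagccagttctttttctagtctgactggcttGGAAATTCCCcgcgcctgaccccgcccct
Tsc22d3: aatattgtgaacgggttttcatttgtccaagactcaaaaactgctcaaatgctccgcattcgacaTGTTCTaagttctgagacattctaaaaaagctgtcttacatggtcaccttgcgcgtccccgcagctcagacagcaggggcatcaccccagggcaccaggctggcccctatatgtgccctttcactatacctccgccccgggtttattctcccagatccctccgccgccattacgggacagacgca
Tiparp: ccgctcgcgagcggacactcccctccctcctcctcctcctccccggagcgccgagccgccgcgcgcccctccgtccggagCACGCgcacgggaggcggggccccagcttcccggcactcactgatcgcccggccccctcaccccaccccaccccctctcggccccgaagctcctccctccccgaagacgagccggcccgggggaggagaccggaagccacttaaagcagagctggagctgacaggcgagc
The element of Sgk1 starts at position -189 relative to that transcript start and reads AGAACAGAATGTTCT, and the NF-kappaB site of Nfkbia starts at position -29, on the opposite strand. These are matches of letters, and the arrays do not show which start was used or whether a factor was bound.

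The arrays were alike in scale, with median log2 intensities between 4.67 and 4.71. The signal from the 5′ ends of transcripts was weaker in samples 15 and 17: the 3′ minus 5′ difference of the Gapdh controls was 0.62 in samples 11 and 13, 2.64 in sample 15 and 3.79 in sample 17. Markers of brain tissue were present, with all 5 neuronal and all 5 astrocyte markers above a background of 6.45 on the log2 scale. That background is the 95th percentile of 43 genes typical of tissues such as testis, liver and skin. Of hippocampal neuron markers, all 3 of CA1 pyramidal cells and 3 of 4 of dentate granule cells passed. The dentate marker Prox1 was under background, with a mean of 5.76. The hypothalamic and pituitary markers were at 1 of 5, Oxt at 7.24, and the leukocyte markers at 0 of 2, by their means over the samples. In this bulk tissue, fewer cells of a type and less RNA per cell cannot be told apart. Sample 17 was the highest of the 4 for 38.9% of genes above background and sample 11 the lowest for 47.4%.

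Transcripts of all 10 genes were detected. By its probe set with the highest mean, every gene lay above background, where 44.2% of all genes did. Of the 28 probe sets 17 were above it, against 33.3% of the single-symbol probe sets of the array, and the other 11 were second or later probe sets of Nr3c1, Fkbp5, Tsc22d3, Zbtb16, Nfkbia and Tiparp. Levels below are means ± SD of log2 intensity over the 4 samples, and they are not ranked across genes because probe sets differ in affinity. The plot of values by sample shows which genes lay flat and which spread out.

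**Figure D1:**
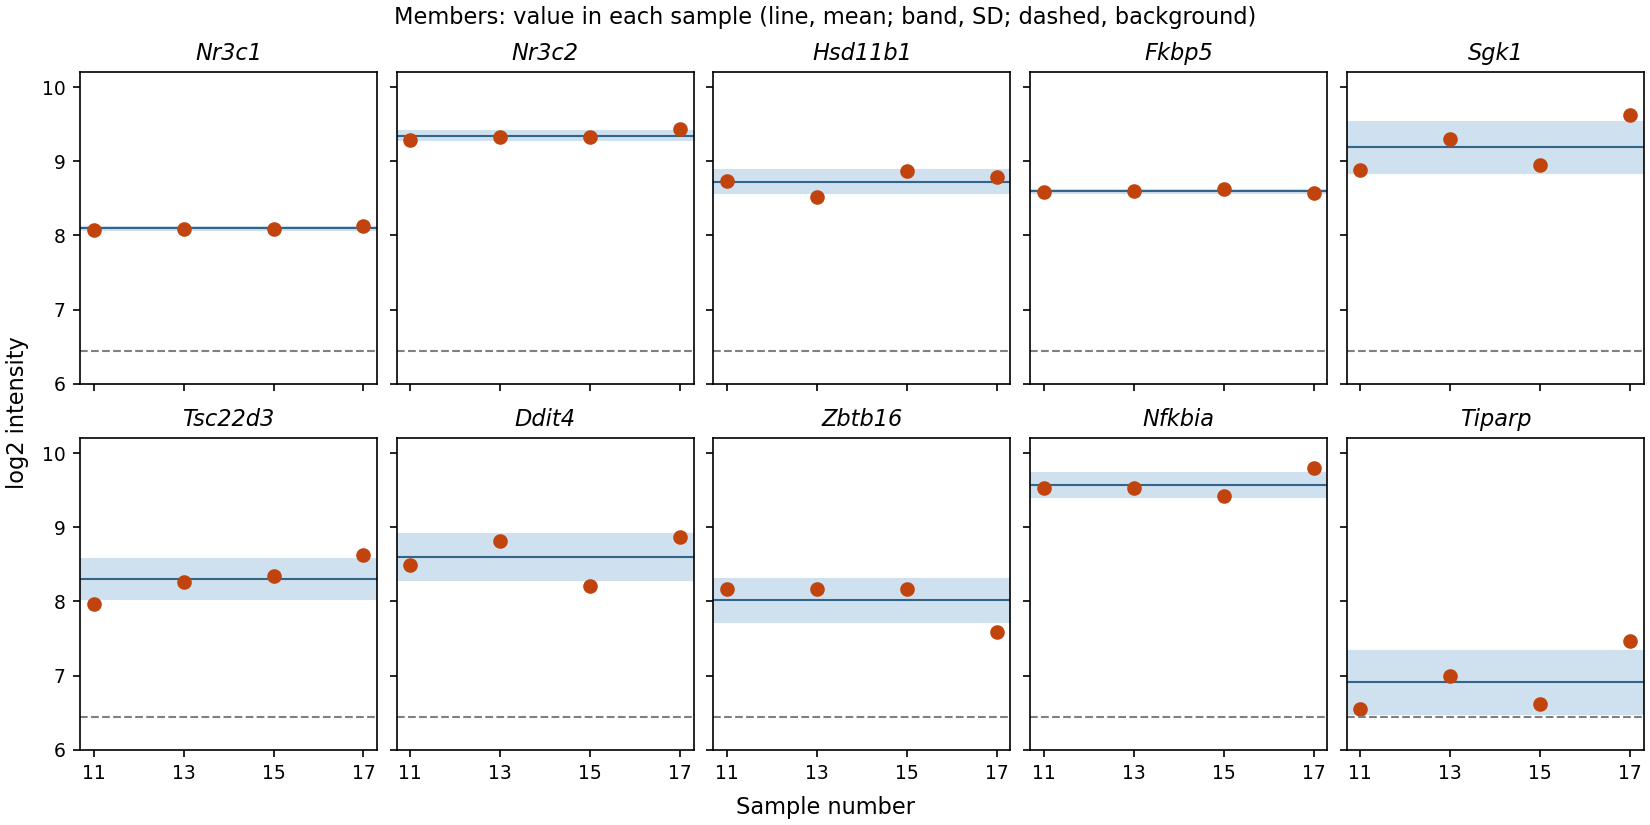
Log2 intensity of the probe set with the highest mean of each gene (y axis) in samples 11, 13, 15 and 17 (x axis); points are single arrays, the line is the mean, the band 1 SD either side (n = 4) and the dashed line the background of 6.45. Nr3c1 and Fkbp5 lie flat, with SDs of 0.023 and 0.021, while Sgk1 and Tiparp are highest in sample 17, at 9.62 and 7.47.

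Both receptors were nearly level across the samples. Nr3c1 had log2 values of 8.08, 8.09, 8.08 and 8.13 in samples 11, 13, 15 and 17, a mean of 8.09 ± 0.023. The highest and lowest samples were 1.04-fold apart. Nr3c2 had 1 probe set, at 9.28, 9.33, 9.33 and 9.43 in the same order (9.34 ± 0.064), a 1.11-fold span with sample 17 at the top. A share of 6.67% of 2457 genes within 0.5 of the level of Nr3c1 had a smaller SD, and 40.2% of 1258 genes near Nr3c2 did. The other probe sets of Nr3c1 do not repeat that flatness: the second above background stood at 7.72, 7.89, 7.98 and 7.92 (7.88 ± 0.11), lowest in sample 11 like the first. Its 4 remaining probe sets had means between 2.97 and 4.49, under background.

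Hsd11b1 had a wider spread than the main probe sets of the receptors. Its product, 11-beta-hydroxysteroid dehydrogenase type 1, regenerates active corticosterone from its inert keto form inside cells. The values were 8.73, 8.51, 8.87 and 8.79 in samples 11, 13, 15 and 17 (8.72 ± 0.15), a 1.28-fold span. Of 1885 genes near its level, 89.1% had a smaller SD. Sample 13 was the low one, and without it the SD was 0.071. By main probe sets, it is the only one of the 10 genes whose lowest value fell in sample 13, which was the lowest for 18.4% of genes above background.

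Fkbp5 was the steadiest gene of the 10 and did not move with the other targets. It encodes FKBP51, a co-chaperone that lowers the receptor's affinity for hormone and is itself induced by the receptor. The values were 8.58, 8.59, 8.62 and 8.58 (8.59 ± 0.021), and 6.19% of 2020 genes near that level had a smaller SD. Its second probe set, under background, stood at 5.404, 5.404, 5.04 and 4.76. That probe set is too dim to order the samples.

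Sgk1 and Tiparp had the widest spreads of the 10 genes and shared an order of samples. Sgk1 encodes serum- and glucocorticoid-regulated kinase 1, which acts on ion channels and transporters. Its values in samples 11, 13, 15 and 17 were 8.88, 9.30, 8.95 and 9.62 (9.19 ± 0.34). Samples 13 and 17 were high, samples 11 and 15 low, and the extremes were 1.67-fold apart. Of 1396 genes near its level, 99.6% had a smaller SD. Tiparp encodes a mono-ADP-ribosyltransferase that is best known as a target and inhibitor of the aryl hydrocarbon receptor. Its main probe set stood at 6.55, 6.996, 6.61 and 7.47 in samples 11, 13, 15 and 17 (6.91 ± 0.42), a 1.88-fold span, and 99.7% of 2425 genes near its level had a smaller SD. The second probe set of Tiparp, at 5.79, 6.24, 5.81 and 6.50, had a mean of 6.08, under background. The third stood at 5.37, 5.20, 4.65 and 4.78, so neither was used here to order the samples. Without sample 17 the SD was 0.23 for Sgk1 and 0.24 for Tiparp.

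Ddit4, an inhibitor of mTOR signalling induced by glucocorticoids, hypoxia and energy stress, was also high in samples 13 and 17. Its single probe set stood at 8.49, 8.82, 8.20 and 8.87 (8.60 ± 0.31), a 1.59-fold span. Sample 15 was the lowest here, not sample 11, and without it the SD was 0.20. With Sgk1, Tiparp and the nearly flat Nr3c1 it makes 4 of the 10 genes whose main probe sets were highest in samples 13 and 17. Over all genes above background the share was 12.3%. With each array centred on its median the count was 6 of 10, and after a further quantile normalization it was 3. The share over all genes was not computed under these alternatives.

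Nfkbia was highest in sample 17 by each of its 4 probe sets above background. It encodes I-kappa-B alpha, which holds NF-kappaB in the cytoplasm and is induced by NF-kappaB and by glucocorticoids. The main probe set stood at 9.53, 9.53, 9.42 and 9.79 in samples 11, 13, 15 and 17 (9.57 ± 0.16), a 1.297-fold span. The next one stood at 8.07, 8.16, 8.18 and 8.62, and the third at 7.33, 7.47, 7.22 and 7.75. The fourth was at 7.15, 7.33, 7.06 and 7.70, and the fifth, under background, at 5.85, 6.03, 5.65 and 6.16. Leaving out the one under background, all 4 put sample 17 on top, and sample 15 was the lowest in all but the second, where sample 11 was. Where at least 2 probe sets of a gene lay above background, which held for 2510 genes, 11% had sample 17 as the highest by all of them. Some of these probe sets may share transcript sequence, and all share the RNA, so they are not replicates. Without sample 17 the SD of the main probe set was 0.063.

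The probe sets of Tsc22d3 disagreed. The gene encodes GILZ, the glucocorticoid-induced leucine zipper, and has several transcript starts, 3 of them among the RefSeq windows. The main probe set gave 7.97, 8.26, 8.34 and 8.62 in samples 11, 13, 15 and 17 (8.297 ± 0.27), a 1.58-fold span with sample 11 low and sample 17 high. The second stood at 7.28, 7.37, 6.75 and 6.98 (7.09 ± 0.28), where samples 11 and 13 were high and sample 15 low. The third was at 6.78, 6.97, 6.97 and 6.97 (6.92 ± 0.097), with only sample 11 apart. As a mean over the probe sets above background the SD of Tsc22d3 was 0.11, so a statement on this gene holds for a probe set and not for the gene as a whole. The fourth probe set had a mean of 4.04, under background.

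By main probe sets, Zbtb16 was lowest in sample 17, as was, by a small margin, Fkbp5, while the other 5 targets were highest there. It encodes PLZF, a zinc finger transcription factor induced by glucocorticoids in several tissues. Its main probe set stood at 8.16 in samples 11, 13 and 15 and at 7.58 in sample 17 (8.02 ± 0.29), a 1.498-fold span. Samples 11 and 15 hold exactly the same number, and without sample 17 the SD was 0.0012, so the whole spread of this probe set lay in sample 17. The second probe set, at 7.21, 7.02, 6.98 and 6.81 (7.005 ± 0.17), was lowest in sample 17 as well. The third had a mean of 4.87, under background. Sample 17 also had the highest Gapdh 3′ minus 5′ difference, 3.79. Its part in the values of sample 17, low for Zbtb16 or high for other targets, was not tested.

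**Figure D2:**
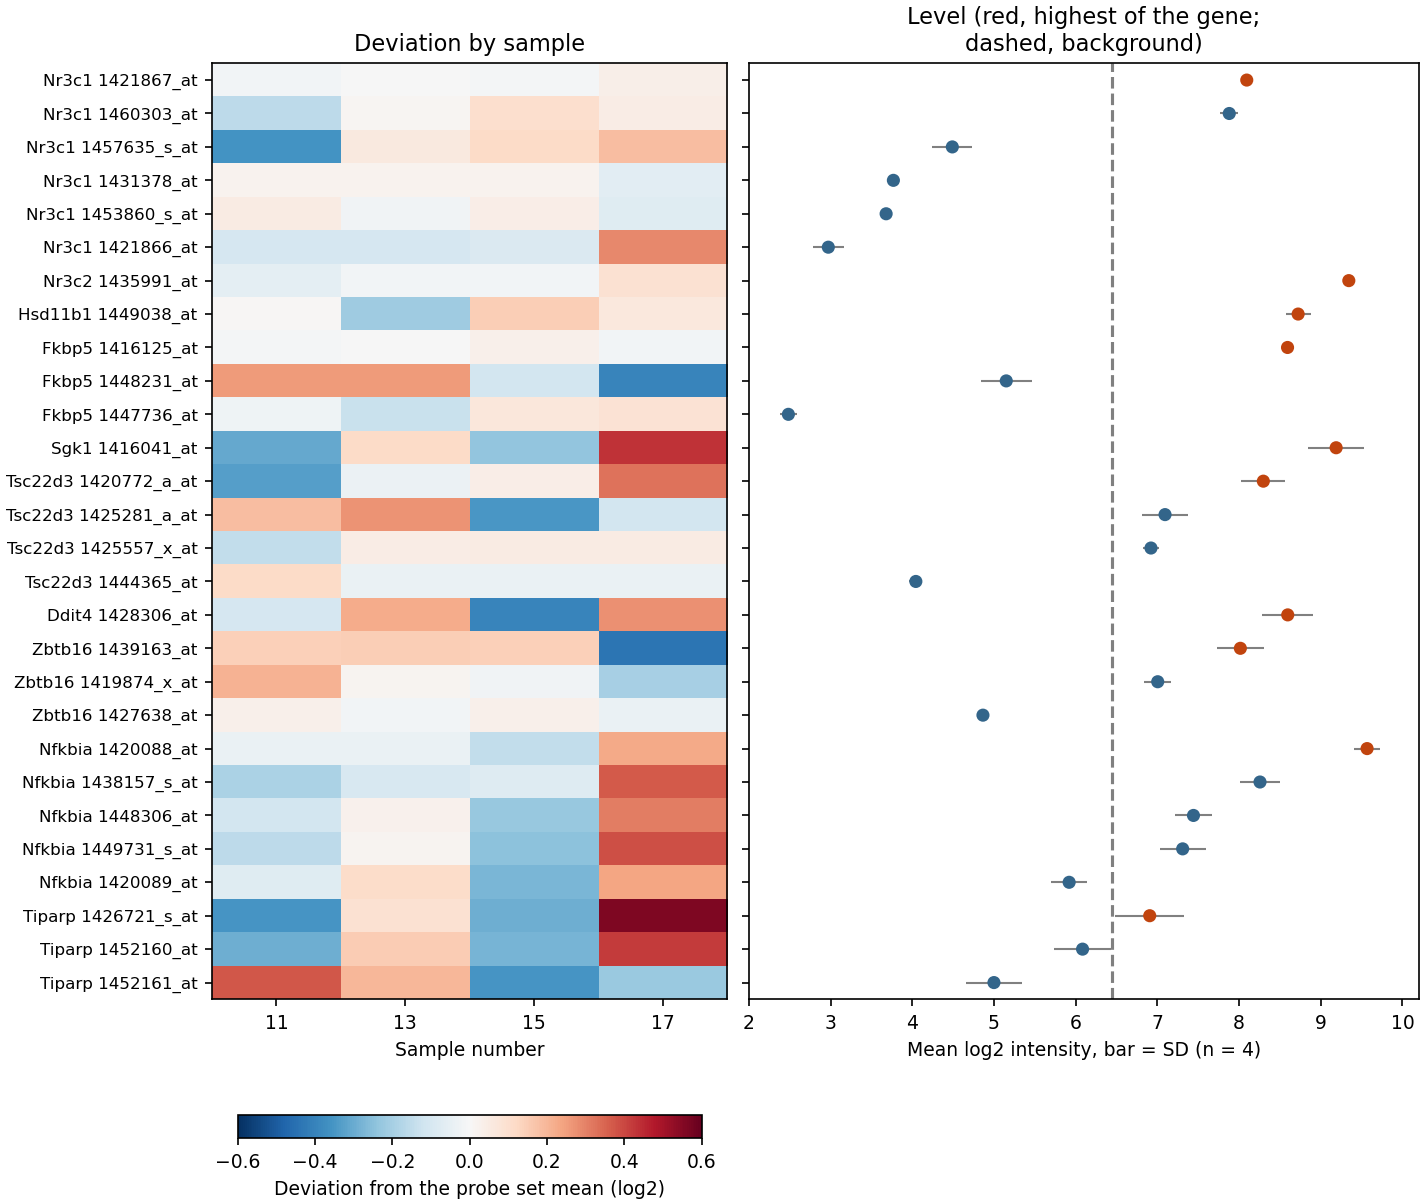
Left, deviation of each of the 28 probe sets (rows, named by gene and probe set) from its own mean on the log2 scale in samples 11, 13, 15 and 17; right, its mean log2 intensity with SD (n = 4), red for the probe set with the highest mean of the gene, and the background of 6.45 dashed. The 4 rows of Nfkbia above background are highest in sample 17 and the 2 of Zbtb16 lowest there, while the 3 of Tsc22d3 differ among themselves.

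Wide spreads were found among the targets, with Fkbp5 as an exception. A range of at least 0.5 on the log2 scale, was reached by 5 of the 7 targets (Sgk1, Tsc22d3, Ddit4, Zbtb16 and Tiparp) and by 0 of the other 3 genes. Over all genes above background, 4.46% had such a range. The median SD was 0.22 for the 10 genes and 0.085 for all genes above background, and 6 of the 10 had an SD above that of 90% of the genes near their level. Since these genes were picked with their values in view, these shares describe them and support nothing beyond them. Without sample 17 only 1 of the 10, Ddit4, had a range of at least 0.5 and the median SD was 0.12. With samples 11 and 13 alone, whose Gapdh 3′ minus 5′ differences were both 0.62 while those of Actb were 1.10 and 1.25, the count was 0 and the median SD 0.092. Over fewer samples the range of any gene can only be equal or smaller, and the share over all genes was not computed for these subsets. With the mean over probe sets above background, 3 of the 10 reached that range.

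**Figure D3:**
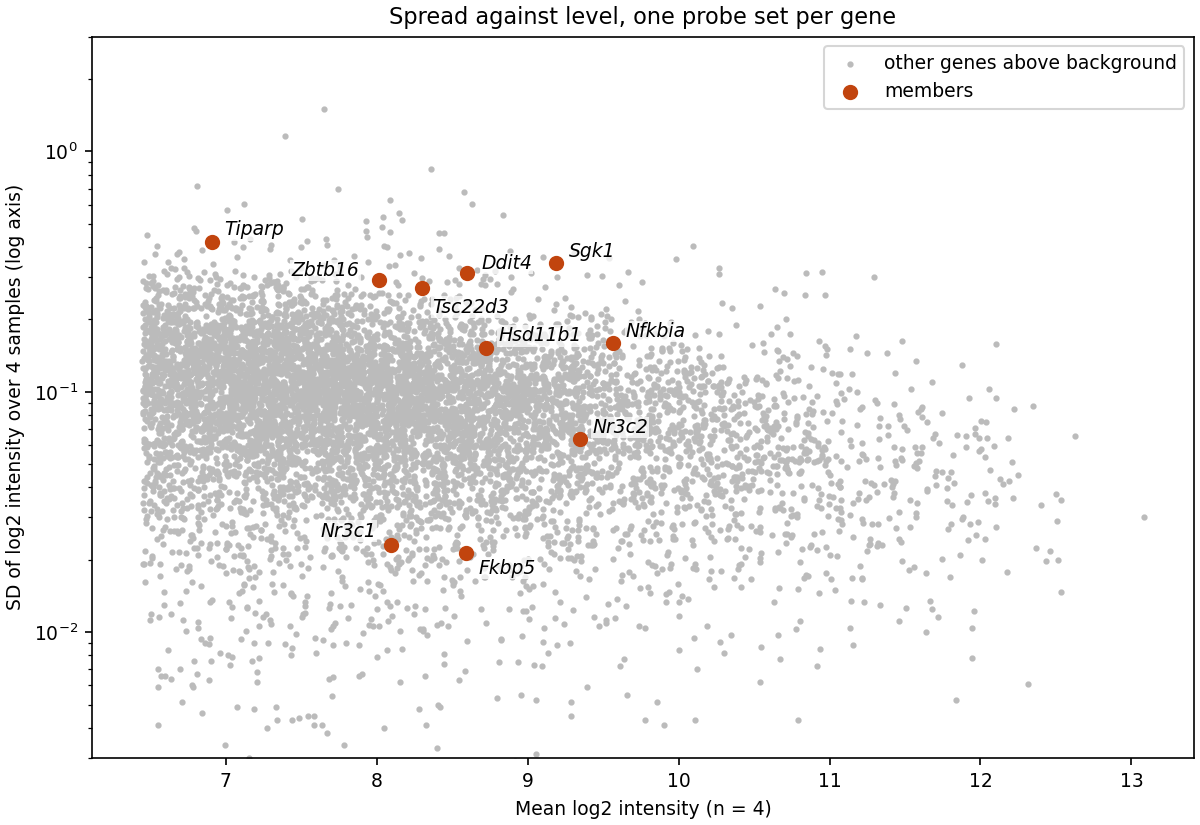
SD of log2 intensity over the 4 samples (y axis, log scale) against mean log2 intensity (x axis) for each gene above background by its probe set with the highest mean; red points are the 10 genes, and 70 genes with an SD under 0.003 are not drawn. Sgk1, Ddit4, Tiparp, Zbtb16 and Tsc22d3 lie at the upper edge of the cloud, with SDs from 0.27 to 0.42, and Fkbp5 and Nr3c1 near the lower edge.

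By main probe sets, sample 17 was the highest for 7 of the 10 genes, against 38.9% of genes above background, and sample 11 the lowest for 5, against 47.4%. The 7 include Tsc22d3 and Nr3c1, whose second probe sets, also above background, were highest in samples 13 and 15. Sample 13 was the highest for 1, Zbtb16 by a margin of 0.0021, against 18% of genes, and sample 11 for 0, against 9.38%. The mean deviation of the 7 targets from their own means was -0.14, 0.071, -0.12 and 0.20 in samples 11, 13, 15 and 17. The mean was thus above 0 in samples 13 and 17 and below it in samples 11 and 15, an order that 3 of the 7 targets, Sgk1, Ddit4 and Tiparp, showed themselves. Tsc22d3, Nfkbia, Zbtb16 and Fkbp5 did not. For Nr3c1, Nr3c2 and Hsd11b1 together the deviations were -0.024, -0.077, 0.039 and 0.062. Samples 11 and 13 were close in the Gapdh 3′ minus 5′ difference, at 0.62 each, and less so in that of Actb, at 1.10 and 1.25. Sample 13 exceeded sample 11 by 0.42 for Sgk1, 0.45 for Tiparp, 0.33 for Ddit4 and 0.30 for Tsc22d3. A difference of at least 0.25 in that direction was found for these 4 of the 10 genes and for 7.17% of genes above background, a limit chosen after the values were seen. By main probe sets the difference was 0 for Nfkbia and 0.0021 for Zbtb16, so the spread of these probe sets lay in sample 17 or 15. Their second probe sets, also above background, did differ between samples 11 and 13. That of Nfkbia stood at 8.07 and 8.16, and that of Zbtb16 at 7.21 and 7.02.

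Marker genes of other cell types also differed between samples. The 5 oligodendrocyte markers, all above background, were all highest in sample 13, with mean deviations of -0.24, 0.41, -0.042 and -0.12 in samples 11, 13, 15 and 17, so they peaked in a sample where Sgk1 and Ddit4 were second highest. The 5 astrocyte markers deviated by -0.10, 0.0057, 0.013 and 0.085, and the 5 neuronal markers by between -0.020 and 0.019. Markers of hippocampal neuron types moved more than these general ones: the 3 dentate granule cell markers above background deviated by -0.017, -0.057, -0.077 and 0.15, and the 3 CA1 pyramidal cell markers by -0.061, 0.049, 0.14 and -0.13. The choroid plexus marker Ttr was at 9.84 in sample 13 and at 6.54 in sample 17, while the other 3 listed choroid plexus markers were under background. The pituitary gene Gh, under background by its mean, was at 6.55 in sample 13 and between 4.55 and 4.80 in the others. The part of these cell types in the values of the 10 genes was not tested. The activity-induced genes above background, Fos, Arc, Egr1, Junb and Nr4a1 of 6 listed, deviated by -0.25, 0.24, -0.20 and 0.21. Of these, 4 of the 5 were highest in samples 13 and 17, against 12.3% of genes above background. Junb was the exception, with its lowest value, 6.46, in sample 17. The listed Npas4, under background by its mean, stood at 4.99, 5.56, 6.27 and 6.02 and was highest in sample 15.

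**Figure D4:**
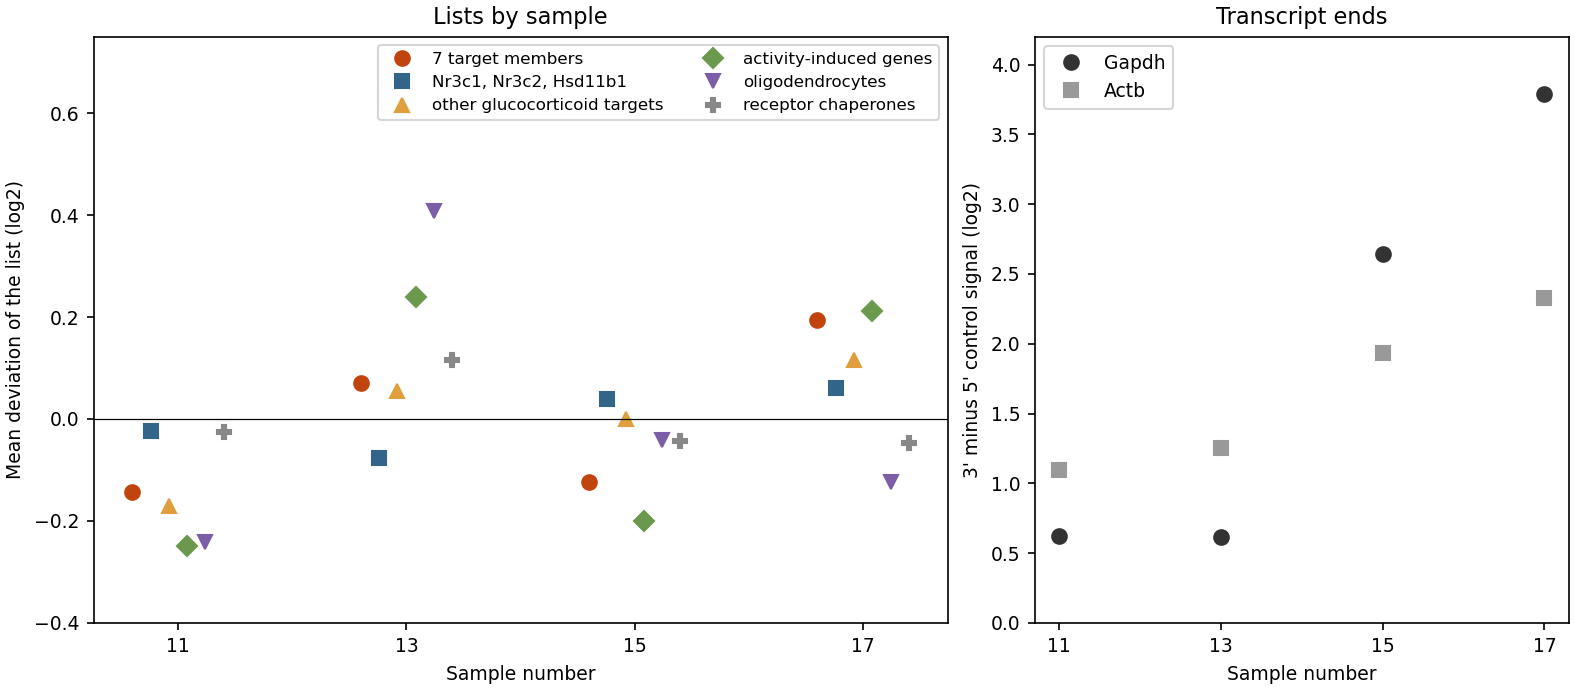
Left, mean deviation (log2) of the genes of each list above background from their own means in samples 11, 13, 15 and 17, for 7 target genes, Nr3c1 with Nr3c2 and Hsd11b1, and 4 other lists; right, 3′ minus 5′ difference of the Gapdh and Actb control probe sets on the log2 scale. The targets lie at 0.20 and the activity-induced genes at 0.21 in sample 17, both below 0 in samples 11 and 15, while oligodendrocyte markers peak in sample 13 at 0.41.

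Other genes known to be induced by glucocorticoids were also lowest in sample 11 as a list, with 12 of 19 measured above background. Their mean deviations were -0.17, 0.054, 0.00018 and 0.12 in samples 11, 13, 15 and 17, the median SD was 0.17, and 4 of the 12 had a range of at least 0.5. Dusp1, a phosphatase that shuts off MAP kinases, stood at 7.37, 7.93, 7.83 and 8.26. Mt2, a metallothionein that binds zinc, stood at 10.39, 11.00, 10.92 and 11.07, with sample 11 alone low. Mt1 was at 11.18, 11.42, 11.38 and 11.53, and Klf9, a transcription factor, was steady at 11.14 ± 0.059. The list overlaps with genes that neuronal activity induces, such as Dusp1 and Per1.

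All 9 measured genes on a list of chaperones and co-chaperones of the receptors were above background. The list deviated by -0.026, 0.12, -0.043 and -0.047, with 4 of the 9 highest in sample 13 and 1 in sample 17, and 2 of them, Fkbp4 and Stip1, had a range of at least 0.5. Fkbp4, the FKBP52 co-chaperone that favours nuclear transport of the receptor and opposes FKBP51, stood at 7.88, 8.17, 7.54 and 7.44 (7.76 ± 0.34). Stip1, which links the heat shock proteins HSP70 and HSP90, stood at 8.53, 8.93, 8.49 and 8.25 (8.55 ± 0.28). Hspa8 at 11.82 ± 0.054 and Hsp90aa1 at 10.72 ± 0.090 were steady. The SD of Fkbp4 was thus far above the 0.021 of Fkbp5, and no difference between those spreads was tested.

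Genes of steroid synthesis, inactivation and transport were under background in all 11 cases measured. Hsd11b2, which inactivates corticosterone in kidney cells, had a mean of 3.93 ± 0.094, and H6pd, which supplies the cofactor of the Hsd11b1 enzyme, of 5.84 ± 0.059. Transcripts too weak to exceed background may still have been present. Of the corticotropin-releasing hormone system 2 of 9 were above background, the receptor Crhr1 at 6.89 ± 0.096 and the binding protein Crhbp at 7.43 ± 0.24, while the hormone Crh itself had a mean of 4.26 ± 0.11.

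Median SDs of the lists of partners of the receptors and targets lay on either side of the median SD of 0.085 of all genes above background. Coregulators of the receptors were above background in 7 of 8 cases with a median SD of 0.11. Ncoa1 and Ncoa2 stood at 9.91 ± 0.0041 and 8.54 ± 0.045, and the acetyltransferases Crebbp and Ep300 at 8.41 ± 0.17 and 7.98 ± 0.12. Of the NF-kappaB pathway 3 of 9 passed, with a median SD of 0.078: Rela, a subunit of the factor, stood at 7.85, 8.002, 8.09 and 8.22, Ikbkb was at 8.12 ± 0.020 and Nfkbib at 7.56 ± 0.078. Partners of SGK and mTOR were at 11 of 14 with a median SD of 0.053 and 0 with a range of at least 0.5. Among these, Ndrg1, a substrate of SGK1, stood at 8.81, 9.20, 9.08 and 8.99, so that sample 17, the highest for Sgk1, was not the highest for Ndrg1. Tsc22d4 was at 9.04 ± 0.13, Tsc22d1 at 11.42 ± 0.041 and the mTOR activator Rheb at 10.54 ± 0.019. Of the aryl hydrocarbon receptor list 1 of 6 was above background, Arnt at 6.70 ± 0.039, and Ahr itself lay just under it at 6.44 ± 0.092.

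Of the 5 genes closest in pattern to Sgk1, 4 were also among the 5 closest to Tiparp. Likeness was the root mean square difference between values centred on each gene's mean, over 4 samples, among genes above background. For Sgk1 the 5 closest were Arrdc3 (0.082), Trp53inp1 (0.087), Slc5a5 (0.092), Slc16a1 (0.095) and Rbm12 (0.10). For Tiparp they were Arrdc3 (0.12), Trp53inp1 (0.15), Slc16a1 (0.15), Slc5a5 (0.15) and Cd83 (0.16). Arrdc3, an arrestin-like adaptor, stood at 6.51, 7.03, 6.81 and 7.32 in samples 11, 13, 15 and 17. They were sought among 8049 genes with only 4 samples each, and the lists carry no test.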

How the data were processed

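The table deposited by the authors holds 1 log2 intensity for each probe set and array. RMA is the tool named in the submitters' processing notes, with no version or settings stated there. RMA corrects background, brings arrays to a common distribution and summarises probes. Of 45101 probe sets, 53.2% hold an equal value in at least 2 samples, as do 32.1% of the 28 member probe sets, which lowers some SDs. The gene table gave 1 symbol for 34958 probe sets, several for 932 and none for 9211; symbols were updated through the RefSeq table of GRCm38.p6 for 34754. Each gene was represented by its probe set with the highest mean. Background was the 95th percentile of the means of 43 of 48 listed genes not expected in hippocampus. RNA was extracted from lipid-rich tissue, DNase-treated, amplified and biotin-labelled, per the labels' protocols.

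Members and lists were chosen with earlier results of these data known. Named genes are the 10 members and the 5 genes closest in pattern to each of the 2 members with the largest SD. In each pathway list, the 2 genes with the largest SD and the 2 with the highest mean above background are also named. Fos, Arc, Egr1, Junb, Nr4a1, Npas4, Prox1, Oxt, Ttr, Gh, Crh, Hsd11b2, H6pd, Ahr and Per1 fall outside that rule. They were chosen after their values were seen, or as markers. No test was run on the members: there is 1 group, and the number of arrays limits precision. Summaries were tried on simulated data with planted patterns. Alternatives covered the background limit, the choice or average of probe sets, normalization, centring and each sample left out. Python 3.11.15, pandas 2.3.3 and numpy 2.4.6 were used.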

Additional observations from a re-analysis of the deposited data

Results flagged for a closer look

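Of 59 sets of 4 values examined, 7 had 1 sample far from the other 3, its gap taking most of the range. Chance flags about 1 in 20 such sets, and equal values in the other samples make a gap look large. Among the genes described, the main probe set of Zbtb16 stood at 7.58 in sample 17, with the other 3 samples within 0.0021 of each other. The third probe set of Tsc22d3 stood at 6.78 in sample 11. Under background, the weakest probe set of Nr3c1 stood at 3.26 in sample 17, another of its probe sets at 3.71 in sample 17 and the fourth of Tsc22d3 at 4.16 in sample 11. Among coregulators, Ncoa1 stood at 9.91 in sample 11, where the other 3 samples are equal, and Ep300 at 8.15 in sample 17.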

How the results depend on the processing

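All 10 genes stayed above background with its limit at the 90th percentile, after renewed quantile normalization, after median centring and with each sample left out. The count was 9 with the limit at the highest listed gene, which leaves out Tiparp, and 7 when probe sets were averaged by their median. The count with a range of at least 0.5 was 5, and 3 as the mean over probe sets above background, 0 in samples 11 and 13 alone, and 1 to 5 with each sample left out. The median SD was 0.22, then 0.092 in samples 11 and 13 alone and 0.12 to 0.26 with each sample left out. Sample 11 was the highest for 0 genes, for 1 with the median over probe sets and for 3 after quantile normalization; with the latter, sample 13 was highest for 0 and sample 15 for 1. Sample 17 was highest for 5 to 7 under these and median centring. The mean deviations of the 10 genes, -0.11, 0.027, -0.074 and 0.16 in samples 11, 13, 15 and 17, kept their signs under each alternative run, with -0.056, 0.076, -0.12 and 0.10 for the median over probe sets. With the median over probe sets the SD was 0.31 for Fkbp5, which is that of a probe set under background, and 0.11 for Nr3c1. No share over all genes was computed under the alternatives. The comparison of samples 11 and 13 alone and the alternatives for genes highest in samples 13 and 17 were added after the values were seen. No paired analysis was possible because there is 1 group. Depth is not defined for arrays. Of the 28 probe sets, 11 were under background and are not used to order the samples, except in the median over probe sets, which includes them.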
